A study of Zea mays with 112 samples.

Results

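The regions described here were places in the maize genome where strong binding sites of 5 transcription factors (TFs) fell together: MADS53, GATA24, HB96, SFB1 and ZAG2. MADS53 and ZAG2 are both MADS-domain proteins, and GATA24, HB96 and SFB1 belong to other families. The 5000 peaks with the highest signal of each TF, called top peaks below, were taken from every list of the series, and their summits were chained into a locus wherever neighbours lay within 100 bp. A locus was a member where 3 or more of the 5 TFs had a top peak. Members were therefore chosen by the signal of these 5 TFs, so the values of those 5 lists at the members are given as a description, without a test. Top peaks of the other TFs also took part in the chaining and could join summits of the 5 TFs into a locus. Chaining over the 5 lists alone gave 2856 loci, and 84.7% of the members lay within 100 bp of such a locus. Of 252192 loci of top peaks, 3327 were members, or 1.32%.

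Binding was measured by ampDAP-seq, in which a HaloTag fusion of a TF, made in wheat germ extract, captures fragments from a PCR-amplified library of naked genomic DNA. The DNA came from leaves of the inbred line B73, labelled 14 DAG, and every list rests on DNA of this source without treatment. Whether a single extraction or amplified library served all lists is not stated. Each TF has 1 list, and no repeat library is named. Spread between lists therefore mixes differences between proteins with differences between libraries, and these cannot be told apart. The lists held 9750022 peaks of 201 bp, between 5387 and 285897 a TF, and read depth is unknown.

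In this assay chromatin and DNA methylation are absent, so a peak marks a sequence that the protein can hold in vitro and not a site known to be used in a cell. Plant TFs fall into families by their DNA-binding domain, and members of a family usually prefer related sequences. MADS-domain proteins are known for CArG boxes, GATA zinc fingers for the letters GATA, HD-ZIP proteins for AT-rich palindromes, WRKY proteins for W boxes and bZIP and bHLH proteins for sequences with an ACGT core or an E-box.

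The families given for the 5 TFs were M-type MADS for MADS53 (Zm00001d042550), GATA for GATA24 (Zm00001d018421), HD-ZIP for HB96 (Zm00001d004230), S1Fa-like for SFB1 (Zm00001d025339) and MIKC-type MADS for ZAG2 (Zm00001d041781). MIKC-type proteins of this clade include regulators of floral organ and ovule identity, and M-type proteins are best known from female gametophyte and endosperm. The letters of the representative motif listed for each TF are shown because they hold a stretch in common. The capitals mark the letters TCACC, and the motifs of MADS53 and GATA24 are printed as their reverse complement.
MADS53: TCACCattg
GATA24: gttaTCACCtt
HB96: ctatTCACCatcactattca
ZAG2: TCACCa
Every TF of the series has a listed motif, and 4 of these motifs held TCACC on either strand, those of MADS53, GATA24, HB96 and ZAG2. The motif of SFB1 did not hold it, and its longest run of letters in common with the other 4 was CAATG, in the motif of MADS53, and ATTCA, in that of HB96. The motifs of MADS53, HB96 and ZAG2 all held the longer run TCACCA, and MADS53 and HB96 shared ATGGTGA on the other strand. In the motif of GATA24 the capitals overlapped the letters GATA of the opposite strand. The word TCACC was picked after the 5 motifs had been seen, and the motifs were derived from the same libraries as the peaks, so the match is not independent of the choice of loci. The sequence under the members was not analysed here.

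All 5 TFs had a top peak at 733 members, 4 of them at 1122 and 3 of them at 1472. The commonest set after all 5 lacked only ZAG2, at 284 members, and the rarest was GATA24, HB96 and ZAG2, at 100. MADS53 had a top peak at 2749 members, GATA24 at 2516, HB96 at 2495, SFB1 at 2478 and ZAG2 at 2331. The share of members with a top peak of a TF thus lay between 70.1% for ZAG2, which lacked a top peak at 996 members, and 82.6% for MADS53, which lacked it at 578, and the rule itself makes these shares high. Counting peaks of any strength with a summit within 100 bp of the span of top summits, MADS53 had a peak at 96.0% of members, SFB1 at 84.3%, HB96 at 83.9%, GATA24 at 83.2% and ZAG2 at 77.5%. Peaks of any strength of all 5 TFs were found at 1404 members, 42.2% of them.

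These loci took up a large part of the top peaks of each list, which the rule itself favours. Of the 5000 top peaks of a TF, 2873 of MADS53 lay at members, 2601 of GATA24, 2572 of HB96, 2564 of SFB1 and 2446 of ZAG2. At the head of the lists the share was higher. Among the 100 strongest peaks, 95 of GATA24, 95 of HB96, 84 of SFB1, 81 of MADS53 and 74 of ZAG2 were at members. In rank classes of 500 peaks, the share of HB96 peaks at members was 89.4% in the first class and 26.4% in the last, and that of MADS53 was 72.4% in the first and 36.6% in the last. MADS53 was the only list of the 5 in which the second class, with 78.0%, lay above the first.

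**Figure D1:**
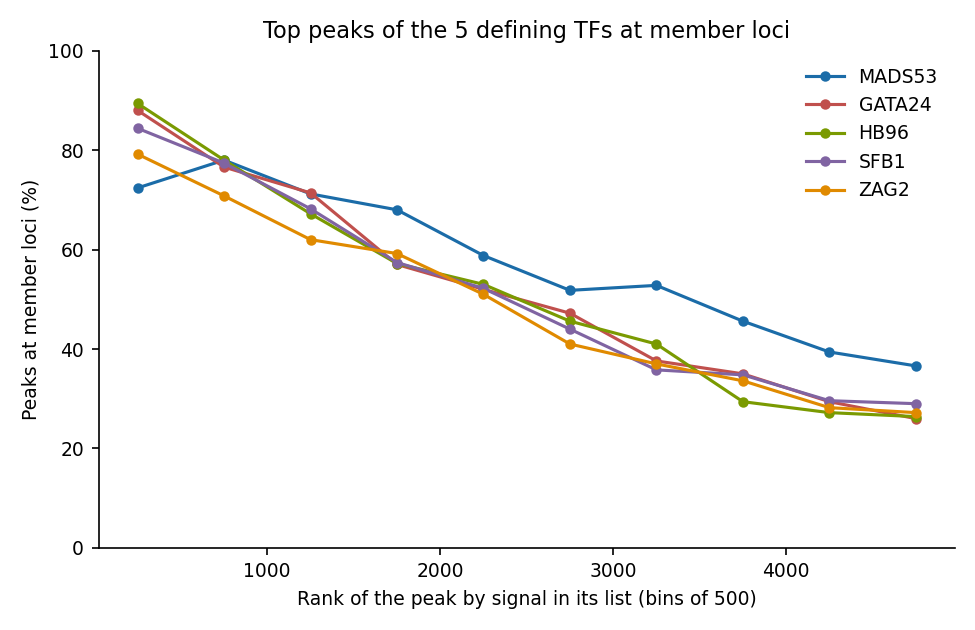
Share of top peaks at member loci (percent) against the rank of the peak by signal in its own list, in 10 classes of 500 peaks; each line is 1 of the 5 TFs whose top peaks define the loci. The 5 lines fall with rank, from between 72.4% and 89.4% in the first class to between 26% and 36.6% in the last.

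The signal, a value of the peak caller without stated scaling between lists, was higher at members in each of the 5 lists. Top peaks of MADS53 had a median signal of 106 at members and 92.1 elsewhere. For GATA24 the medians were 84.5 at members and 70.3 elsewhere, for HB96 64 at members and 53 elsewhere, for SFB1 54.0 at members and 45.0 elsewhere, and for ZAG2 37.4 at members and 31 elsewhere. The quartiles overlapped in every list, for example 46 to 65 at members and 42 to 51 elsewhere for SFB1. The strongest peak of GATA24, with a signal of 533, and that of ZAG2, with 492, lay outside the members.

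Top peaks of the 5 lists were not of equal confidence. The median −log10 q at members was 22.6 for MADS53, 12 for GATA24, 12 for HB96, 8.71 for SFB1 and 6.82 for ZAG2. A −log10 q of 10 or more was reached by 99.3% of the MADS53 top peaks at members, and by 20.2% of those of ZAG2. In a short list the 5000th peak is a weak peak: the top peaks were 11.5% of the MADS53 list and 51.6% of the ZAG2 list. The lowest top signal was 78.0 for MADS53 and 25.8 for ZAG2.

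Members that lacked a top peak of a TF often had a weaker peak of it. Among 578 members without a top peak of MADS53, 446 had a weaker peak, or 77.2%. The same share was 38.4% for SFB1, 35.6% for HB96, 31.1% for GATA24 and 24.9% for ZAG2. At the other loci that lacked a top peak of the TF, weaker peaks were found at 4.13% for MADS53, 1.50% for SFB1, 2.45% for HB96, 2.10% for GATA24 and 0.846% for ZAG2. On either side of the threshold, all 5 TFs had a peak of any strength at 17.9% of the 1472 members with exactly 3 of the TFs and at 7.18% of the 2409 loci with exactly 2, and 66.4% of these 2409 loci had peaks of any strength of 3 or more of the 5.

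The summits of the 5 TFs lay close to each other but were seldom all at the same base. Where MADS53 and HB96 both had a top peak, at 2033 members, their strongest summits were a median of 36 bp apart, and 36.2% of them were within 20 bp. The median distance of the other 9 pairs of TFs was between 46 bp, for HB96 and SFB1, and 61 bp, for GATA24 with SFB1 and GATA24 with ZAG2. The lowest share within 20 bp was 21.1%, for GATA24 and SFB1. At the 733 members with all 5, the 5 strongest summits spread over a median of 151 bp (quartiles 93.0 and 198), within 50 bp at 70 of them and over more than 200 bp at 161. With a chaining distance of 100 bp, a locus can be long: the span of top summits at members had a median of 197 bp, quartiles of 141 and 275 bp and a largest value of 785 bp. The median span was 72 bp at the other loci with top peaks of 3 or more TFs.

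Peaks of many TFs outside the 5 were found at the members. A member had top peaks of a median of 7 other TFs (quartiles 4 and 10) and peaks of any strength of a median of 25 (quartiles 19 and 31). At the 45970 other loci with top peaks of 3 or more TFs, the medians were 4 for top peaks and 11 for peaks of any strength. Counting only peaks with a −log10 q of 10 or more, these medians were 9 at members and 7 at those other loci. A member with no top peak of another TF was rare, with 55 such loci, and each of the members had a peak of some strength of at least 2 other TFs. Peaks of 30 or more other TFs were present at 1053 members, or 31.7%, and at 0.0864% of the loci that were not members. Since members have longer spans, the window in which a peak was counted was also longer there. Top peaks of other TFs also helped to chain the loci, so the rule itself can raise their number at members.

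The number of other TFs went up with the number of the 5 TFs present. The median number with a peak of any strength was 5 at loci with none of the 5, 8 with 1, 15 with 2, 21 with 3, 26 with 4 and 32 with all 5. For top peaks the medians were 1, 1, 3, 5, 7 and 11 in the same order. Top peaks of the other TFs took part in the chaining, so this rise may be built in part into the loci, which was not tested. Of the members with all 5 TFs, 1 had no top peak of any other TF, and the smallest number of other TFs with a peak of any strength was 7. The median span in this series was 1 bp at loci with none of the 5, 19 bp with 1, 105 bp with 2, 163 bp with 3, 211 bp with 4 and 255 bp with all 5, so span and number of TFs moved together, and their parts were not separated.

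**Figure D2:**
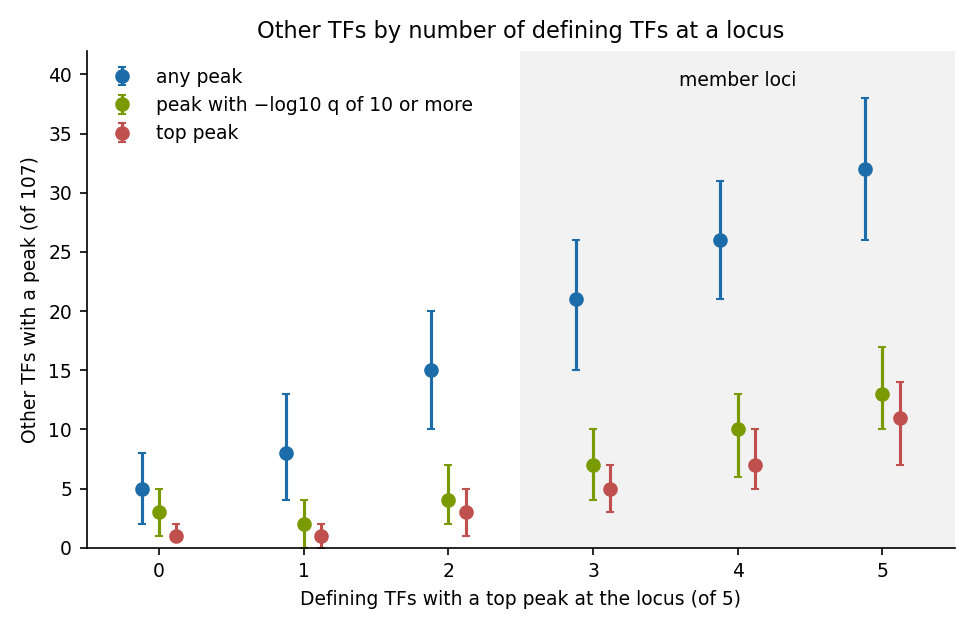
Number of the TFs outside the 5 with a peak at a locus against the number of the 5 defining TFs with a top peak there; points are medians over loci and bars run from the lower to the upper quartile, for peaks of any strength, peaks with a −log10 q of 10 or more, and top peaks. The median for any peak is 5 at 0 defining TFs, 21 at 3 and 32 at 5.

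The other TFs were far from equal at the members. Over the lists outside the 5, the share of members with a peak of any strength had a median of 14.2% and ranged between 0.12% and 88.4%. It was 50% or more in 22 lists and under 1% in 21. Over all loci of top peaks the same share had a median of 6.22% and never exceeded 10.6%. The share was higher at members than over all loci in 65 lists and lower in 42, and it was higher than at the other loci with top peaks of 3 or more TFs in 60 lists. These shares are counts over loci in single libraries, and no test between conditions applies.

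The highest share outside the 5 was that of a MYB-related protein. MYBR33 had a peak of any strength at 88.4% of members (6.18% of all loci of top peaks) and a top peak at 58.3% (1.91% of all loci). Its share thus passed those of 4 of the 5 TFs that define the loci. For MYBR19 a peak was found at 70.8% of members (4.44% of all loci) and a top peak at 42.4% (1.95%). MYBR86 had peaks at nearly the same share, 69.8% (6.22% of all loci), but top peaks at only 6.97% (1.92%). Its peaks at members stood at a median of 21.5% of the way down its list of 49695 peaks, so most of them missed the 5000 strongest. The lowest MYB-related list, MYBR111, had a peak at 0.872% of members (3.58% of all loci).

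Among AP2/ERF proteins, EREB118 had a peak at 84.7% of members (5.21% of all loci) and a top peak at 55.4% (1.93%). EREB2 had a peak at 84% (8.30% of all loci) and a top peak at 34.4% (1.91%). EREB102 had a peak at 68.1% (5.08% of all loci) and a top peak at 43.9% (1.94%). The 17 EREB lists had a median share of 6.13% at members and of 7.96% over all loci, and 3 of them were under 1% at members. The lowest value, 0.451%, was that of both EREB205 (7.99% of all loci) and EREB18 (3.06%).

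WRKY proteins, known for roles in defence and also active in seed development, were split in the same way. WRKY47 had a peak at 80.7% of members (6.48% of all loci) and a top peak at 47.6% (1.94%). For WRKY105 the shares were 71.4% (7.96% of all loci) and, for top peaks, 25.1% (1.88%). WRKY123 had a peak at 72.6% (6.16% of all loci) but a top peak at 7.51% (1.73%). Of the 20 WRKY lists, 5 had a share of 50% or more and 8 a share under 1%. WRKY2, picked here for its low value, had a peak at 0.301% of members, against 5.82% of all loci and 18.5% of the other loci with top peaks of 3 or more TFs.

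A pair of longer lists reached the members mainly through peaks below their top 5000. BHLH156 had a peak at 85.4% of members (8.35% of all loci) but a top peak at 3.28% (1.91%), and BZIP121 had a peak at 84.4% (10.1% of all loci) and a top peak at 10.1% (1.87%). These lists held 101281 peaks for BHLH156 and 95435 for BZIP121. The median −log10 q at members was 18.1 for BHLH156 and 15.7 for BZIP121, and that of HB96 was 11.4.

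In 3 of the shorter lists, most peaks at members were top peaks. ABI33, of the B3 family, had a peak at 69.7% of members (4.03% of all loci) and a top peak at 43.6% (1.96%). ZIM34, of the ZIM family, had a peak at 61.4% (2.59% of all loci) and a top peak at 50.9% (1.94%). NACTF67, of the NAC family, had a peak at 56.3% (2.95% of all loci) and a top peak at 46.1% (1.97%). The lists of these TFs held 18622 peaks for ABI33, 7965 for ZIM34 and 11215 for NACTF67. The median −log10 q of their peaks at members was 6.09 for ABI33, 5.66 for ZIM34 and 5.41 for NACTF67. With only peaks of a −log10 q of 10 or more, the share of members was 8.63% for ABI33, 10% for ZIM34 and 2.68% for NACTF67. Short lists did not all stand high at members: THX47, with 5387 peaks, had a peak at 0.271% of members (1.84% of all loci). MYBR98, with 12472 peaks, had a peak at 29.5% of members (3.1% of all loci) but a top peak at only 0.150% (1.66%).

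**Figure D3:**
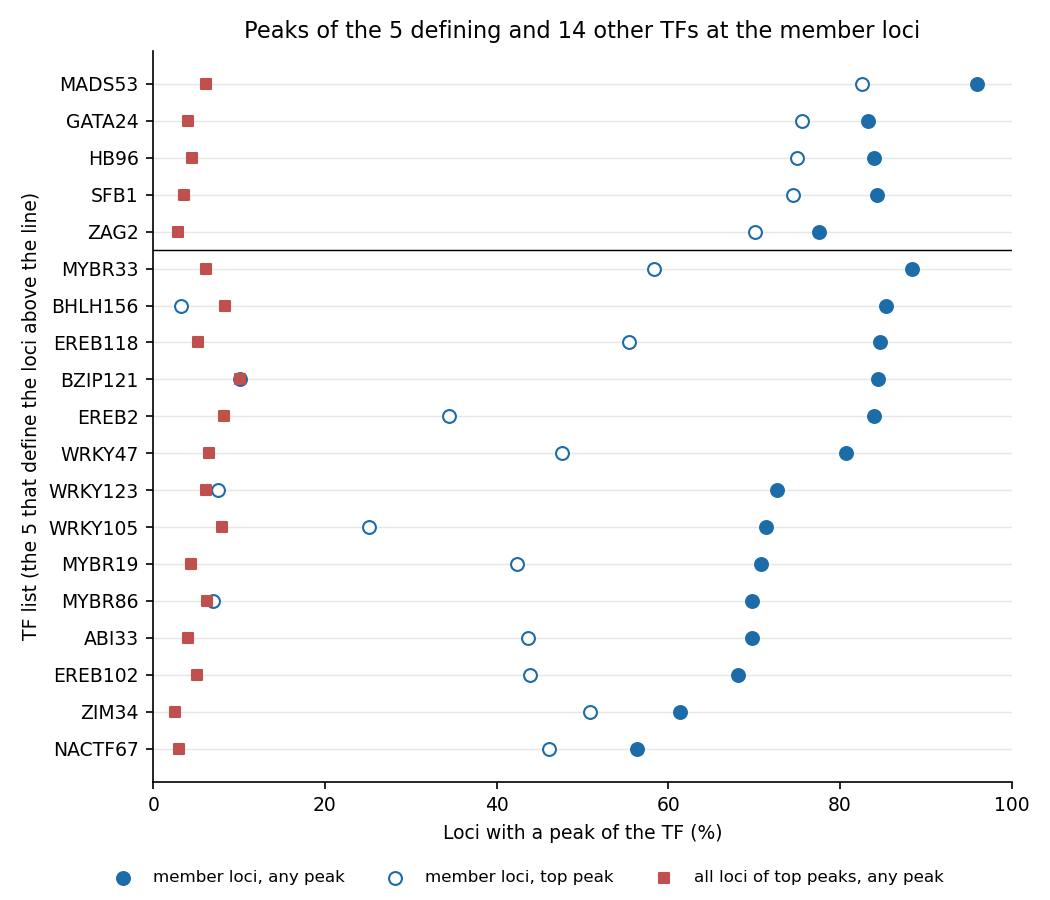
Share of loci with a peak (percent) for the 5 defining TFs, above the line, and 14 other TFs; filled circles give any peak at the 3327 members, open circles a top peak at the members, and squares any peak over all 252192 loci of top peaks. MYBR33 reaches 88.4% at members, against 6.18% over all loci, and BHLH156 has many peaks but few top peaks there.

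Lists with the same name stems as the 5 TFs did not follow them. GATA25, the other GATA list, had a peak at 0.541% of members (3.37% of all loci), against 83.2% for GATA24. HB118 had a peak at 0.150% of members (4.49% of all loci) and HB91 at 1.35% (6.94%), against 83.9% for HB96. These lists were long, with 68033 peaks for GATA25, 74428 for HB118 and 211196 for HB91. The word TCACC was in no motif listed for a TF outside the 5, those with high shares at members such as MYBR33 included. Among 13 BZIP lists the share ranged between 1.74% for BZIP114 (7.62% of all loci) and 84.4% for BZIP121, and among 13 NACTF lists between 0.331% for NACTF61 (4.71% of all loci) and 56.3% for NACTF67. The 2 NKD lists, of regulators of aleurone cell fate, had 60.2% for NKD1 (4.83% of all loci) and 14.2% for NKD2 (4.05%), both above their share over all loci.

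**Figure D4:**
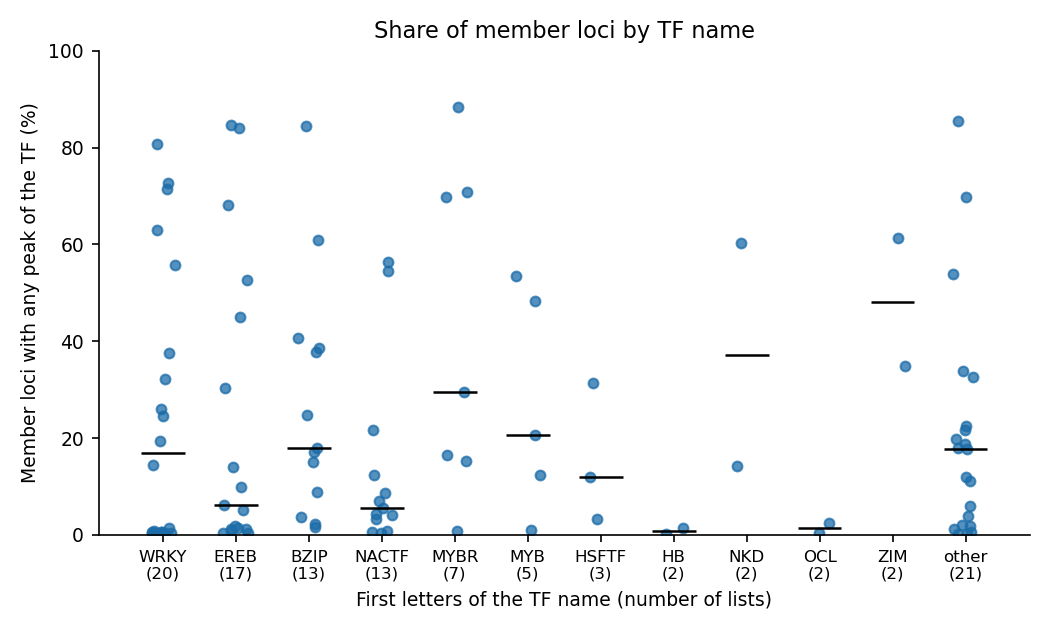
Share of the 3327 member loci with a peak of any strength (percent) for each TF list outside the 5, grouped by the first letters of the TF name with the number of lists in brackets; each point is 1 list and each line a median. Within WRKY the points run between 0.301% and 80.7%, and within MYBR between 0.872% and 88.4%.

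The 14 named TFs were more frequent at members with more of the 5 TFs. MYBR33 had a peak of any strength at 95.2% of the members with all 5 and at 82.8% of those with 3, against 67.3% of the loci with exactly 2. For ZIM34 the shares were 80.6% with all 5, 50.4% with 3 and 33.4% with 2. The median span also grew, from 105 bp with 2 to 255 bp with all 5, and with it the window in which a peak was counted. The part of the window in these shares was not tested. The strongest summit of a named TF lay a median of 55 bp, for NACTF67 and BHLH156, to 83.5 bp, for EREB102, from that of MADS53, and those of the 4 other defining TFs 36.5 bp, for HB96, to 53 bp, for ZAG2.

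Signals at the same members were related to different degrees. Across members with peaks of both TFs, Spearman's rho between the signals of 2 of the 5 TFs was between 0.278, for SFB1 and ZAG2 over 2145 members, and 0.406, for MADS53 and HB96 over 2684. The closest relation among the 19 TFs was outside the 5, with a rho of 0.703 between EREB2 and WRKY105 over 2165 members, followed by 0.613 between EREB2 and EREB102 over 2087. BHLH156 and BZIP121 reached 0.557 over 2499 members. The signals of the 5 TFs chose the members, which can limit their range there. Their rho values are therefore not on equal terms with those of pairs outside the 5. The members are not replicates, and the libraries share the source of their input DNA, so these values describe the lists.

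The share of members with a peak did not go up with the length of a list. Over the lists outside the 5, Pearson's r between log10 of the list length and the share of members with a peak was −0.236 (two-sided permutation test, p = 0.0144, adjusted p = 0.0481 over 10 values), and Spearman's rho was −0.154 (p = 0.111, adjusted p = 0.159). Without the 2 lists farthest from the median length, r was −0.267 (permutation test, adjusted p = 0.0291). The deposited names of all but 5 lists carry an identifier, and the sources used here do not say what step of the work it stands for. Within the lists whose identifier starts with 20, r was −0.278 over 71 lists (permutation test, adjusted p = 0.0482), and within those starting with 19 it was −0.416 over 28 lists (permutation test, adjusted p = 0.0531). With peaks of a −log10 q of 10 or more in both measures, r was −0.0278 (permutation test, adjusted p = 0.775).

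The identifier in the deposited names also gives a grouping of the lists, whose meaning is not stated. SFB1 and ZAG2 shared its first 5 digits, and the other 3 defining lists had digits of their own. The 30 other lists that carry the digits of a defining list had a peak at 15.4% ± 22.3 of members (SD), and the 72 lists with other digits at 25.8% ± 26.7. The difference of −10.4 percentage points did not pass the test (two-sided permutation test, p = 0.0631, adjusted p = 0.113 over 3 tests). Within the lists starting with 20, it was −11.4 percentage points for 27 lists against 44 (permutation test, adjusted p = 0.113). Of the 30 lists, 26 carry the digits of SFB1 and ZAG2, 3 those of GATA24 and 1 those of HB96. The comparison thus rests mainly on a single set of digits. No other list carries the digits of MADS53.

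Members lay at preferred distances from each other. Within 20000 bp there were 842 pairs of members, and 344 of them were within 1000 bp, with a median distance between midpoints of 482 bp (quartiles 430 and 544). A further 313 pairs were between 5000 and 9000 bp apart, with a median of 6588 bp (quartiles 6248 and 7107). Between these ranges pairs were scarce: 30 were found from 1000 to 5000 bp, and a single pair from 4000 to 5000 bp. At longer distances there were 26 pairs from 12000 to 14000 bp, 45 from 14000 to 16000 bp, 22 from 16000 to 18000 bp and 34 from 18000 to 20000 bp.

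The other loci with top peaks of 3 or more TFs had a different profile of distances. Of the member pairs within 20000 bp, 37.4% were 300 to 700 bp apart and 37.2% were 5000 to 9000 bp apart. Of 28740 pairs of those other loci, 6.43% and 19.1% fell in the same ranges, and 21.4% fell from 1000 to 5000 bp, against 3.56% of member pairs. Chained summits cannot form separate loci within 100 bp, and longer spans push midpoints apart, so the lack of member pairs under 300 bp follows in part from the chaining. Shares of pairs are set side by side here because the other loci are far more numerous, and their raw numbers would be higher at any distance. Shares do not remove this difference in density. In a denser set more pairs lie close by placement alone, at all distances, which flattens its profile. The part of density in the contrast was not tested.

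**Figure D5:**
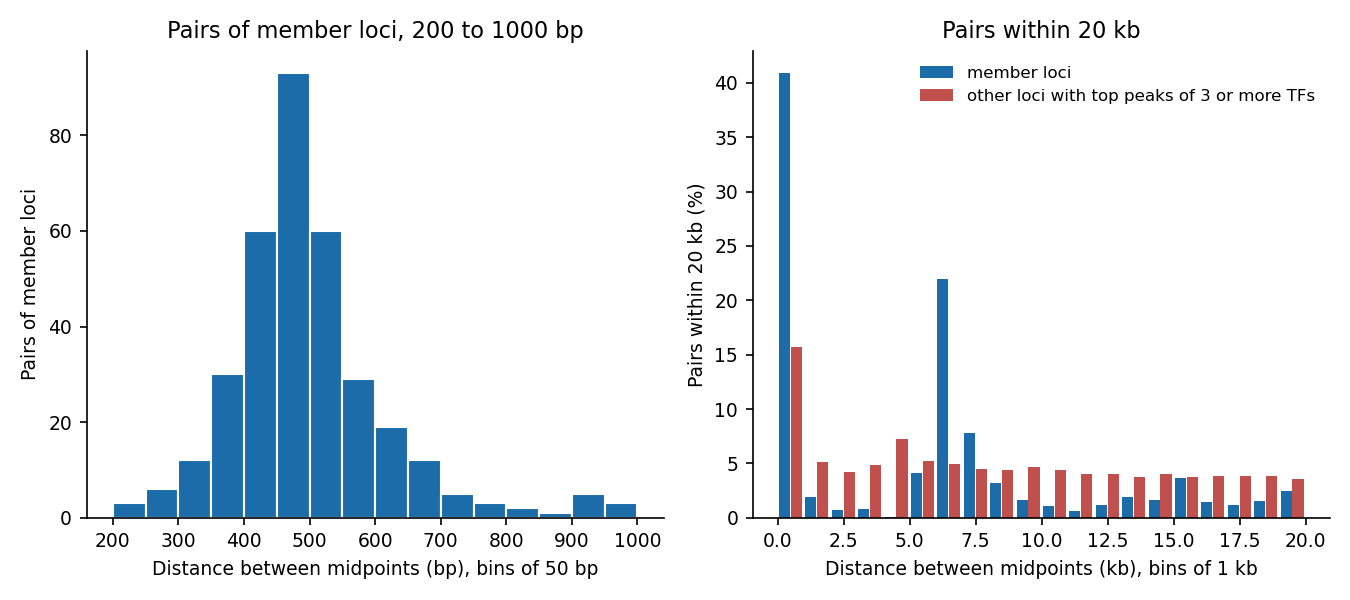
Distances between midpoints of member loci. Left, number of pairs in bins of 50 bp from 200 to 1000 bp; right, share of all pairs within 20 kb (percent) in bins of 1 kb for members and for other loci with top peaks of 3 or more TFs. Members have a maximum at 450 to 500 bp, with 93 pairs, and another from 6 to 7 kb, with 22.0% of pairs, against 4.95% of pairs of the other loci.

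Members joined within 5000 bp formed 359 arrays that held 725 members, or 21.8%. A locus is in an array only together with a neighbour, so members are not independent draws and no interval is given. This share was 12.1% with the top 2500 peaks of each list, 11.5% for loci with 4 or more of the 5 TFs and 36.5% when members were joined within 20000 bp. Of the 359 arrays 353 were pairs, 5 had 3 members and 1 had 4. Arrays took in 32.5% of the other loci with top peaks of 3 or more TFs and reached 11 loci there, in a set that is denser along the genome, and 14.7% of the 2409 loci with exactly 2 of the 5 TFs. Nearly all arrays of members were thus doublets.

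The largest array lay on chromosome 3 between the summits 206897153 and 206901051 (B73 v4), and its members had 4, 5, 3 and 5 of the 5 TFs. Its midpoints were 493, 2694 and 450 bp apart, so that it held 2 doublets. MADS53 had signals of 114, 89.0, 82.4 and 90.7 at these loci in the order of the chromosome, and GATA24 signals of 63, 114, 91.9 and 117. Peaks of 27, 35, 32 and 33 TFs were present. Arrays of 3 members lay on chromosome 2 from 129483102 to 129483936, on chromosome 5 from 146913806 to 146914641, on chromosome 7 from 11507971 to 11508973, on chromosome 1 from 52732424 to 52733866 and on chromosome 5 from 217391372 to 217394466. In the array on chromosome 1 the first member had all 5 TFs and the others 3 and 4.

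The TFs at both loci of a close pair followed their share at single loci. In the 344 pairs within 1000 bp, MADS53 had a peak at both loci in 91.0%, and the square of its share over these loci was 90.9%. MYBR33 had a peak at both in 78.5%, with a square of 76.1%, and EREB2 in 78.8%, with 77.6%. WRKY105 had a peak at both loci in 31.4% of these pairs, with a square of 35.7%, and at a single locus in 56.7%, and EREB102 at both in 31.7%, with a square of 36.2%, and at a single locus in 57%. Among the 313 pairs 5000 to 9000 bp apart, WRKY105 was at both loci in 52.7%, with a square of 50.8%, and at a single locus in 37.1%, and EREB102 at both in 52.1%, with a square of 49.6%, and at a single locus in 36.7%.

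The same lists differed with the distance to the nearest member. WRKY105 had a peak at 59.9% of the 678 members with a neighbour within 1000 bp, at 78.5% of the 340 whose nearest neighbour was 5000 to 9000 bp away and at 73.8% of the 2112 with none within 20000 bp. For EREB102 the shares were 60.5%, 75% and 69.5% in the same order. ZIM34 was lowest at the solitary members, with 68.1%, 68.5% and 58.4%. All 5 TFs had a top peak at 21.7%, 32.4% and 20.2% of these classes. MADS53 was nearly constant, with 95.6%, 98.5% and 95.9%.

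Members were found on all 10 chromosomes, with 508 on chromosome 1 and 207 on chromosome 9. The density was between 1.30 members per Mb, on chromosome 9, and 1.74, on chromosome 3. Loci that were not members had a density of 114 per Mb on chromosome 9 and 118 on chromosome 3. Another 22 members lay on 16 sequences outside the chromosomes, or 0.661% of members, against 1.26% of the loci that were not members. Of 2111 windows of 1 Mb, 633 held no member, and the fullest, from 13 to 14 Mb of chromosome 7, held 14.

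The position along a chromosome differed little from that of other loci. The outer 25% at either end of a chromosome held 1742 of 3305 members, or 52.7%. It held 50.2% of the loci that were not members and 50.9% of the other loci with top peaks of 3 or more TFs. Loci are not replicates, so these shares are a description without a test. The share at members was higher than at loci that were not members on 8 of 10 chromosomes, and on chromosome 10 it was 58.5%, against 51.2%. It was 56.1% for loci with all 5 TFs, 50.6% with 4 and 52.6% with 3. In 10 bins of equal length along a chromosome, the last bin held 12.1% of members, against 9.82% of the loci that were not members, and the bin just before the middle held 8.29%, against 10.1%.

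The locus with top peaks of the most TFs lay on chromosome 10 between the summits 17589492 and 17589931. It had top peaks of 35 TFs and peaks of any strength of 57, and 40 of these reached a −log10 q of 10. The signal there was 201 for MADS53, 116 for GATA24, 129 for HB96, 106 for SFB1 and 102 for ZAG2. These peaks ranked 53rd, 354th, 19th, 21st and 35th in their lists. All 14 named TFs, picked for high shares at members, had a top peak at this locus.

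A locus on chromosome 1, from 83066597 to 83066875, had the most TFs in all among the 10 members that led by number of TFs, with top peaks of 31 and peaks of any strength of 66. The MADS53 signal of 263 was the 3rd in its list and had a −log10 q of 69.2, and GATA24 ranked 8th with a signal of 178. Summits of MADS53 and SFB1 were at 83066727 and 83066725. The locus on chromosome 7 from 168752995 to 168753280, with top peaks of 31 TFs, had the summits of MADS53, HB96, SFB1 and ZAG2 at 168753052, 168753052, 168753054 and 168753051, while that of GATA24, the 3rd peak of its list with a signal of 203, was at 168753182.

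The 10 members that led by number of TFs lay on chromosomes 1, 3, 4, 5, 6, 7, 9 and 10. Further loci were on chromosome 5 from 155091266 to 155092008 and on chromosome 9 from 138943201 to 138943456, each with top peaks of 32 TFs, and on chromosome 1 from 46267058 to 46267361, with 31. Top peaks of 30 TFs were found on chromosome 3 from 205608092 to 205608494 and from 40401233 to 40401523, on chromosome 4 from 209041945 to 209042347 and on chromosome 6 from 93961867 to 93962129. Each of these 10 loci had top peaks of at least 12 of the 14 named TFs. The loci were ranked by number of TFs and the named TFs were picked for high shares at members. This count therefore follows in part from both choices. The genes and repeats around them were not analysed here.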

How the data were processed

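Per the study's methods, the authors trimmed reads with Trimmomatic (0.39), aligned them to B73 v4 with Bowtie2 (2.4.1), removed duplicates with Picard and called peaks with GEM against an empty HaloTag vector, which was not analysed here. The deposited signal of a peak is the caller's value, with no stated scaling between lists, and the authors' −log10 q-value is capped at 999. Ranks were therefore taken within a list. Depth is not given.

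Loci were built with Python (3.11.15), pandas (2.3.3), numpy (2.4.6) and scipy (1.17.1), with scripts tested on simulated data. Positions are the authors' summit labels in B73 v4. The named TFs were the 5 defining ones, the 12 others with the highest share of members with any peak and any of the 5 highest by top peaks. The named loci were the 10 with the most defining TFs, then the most TFs. The members and lists were chosen with earlier results of these data known. Permutation tests drew 100000 resamples over lists. Alternatives changed the number of top peaks, the chaining distance, the ranking, the window and the lists used, and left out each defining TF. Motif letters come from the study's supplement.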

Additional observations from a re-analysis of the deposited data

Results flagged for a closer look

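The values of MADS53 for 2 measures stood apart from the other 4 defining lists by Dixon's criterion for 5 values, which flags about 1 in 20 groups by chance. The criterion was also applied to further measures, such as list length and shares of members, which were not flagged. With several measures tried, a flag arises by chance more often than for a single group. These are different proteins and not replicates. Of the members without a top peak of MADS53, 77.2% had a weaker peak of it, while the same share was between 24.9% and 38.4% for the other 4 TFs. MADS53 also had 1.18 peaks per member with a peak, while the other 4 had between 1.08 and 1.10. Its list, with 43309 peaks, was the longest of the 5, and the part of list length in these values was not tested.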

How the results depend on the processing

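The number of members followed the definition. It was 1584 with the top 2500 peaks of each list, 6438 with the top 10000, 667 with the top 5% of each list, 1243 with only top peaks of a −log10 q of 10 or more and 1855 with 4 or more of the 5 TFs, against 3327. Leaving out a defining TF gave 2320 to 2567 loci. The other 5 definitions gave 2520 to 3588. The share in arrays was 12.1% with the top 2500 peaks, 28.1% with the top 10000, 17.4% with chaining within 50 bp, 18.2% with chaining within 200 bp, 19.1% when ranked by −log10 q, 11.5% with 4 or more TFs, 14.7% to 16.8% without a defining TF, 20.4% when joined within 1000 bp and 36.5% within 20000 bp, against 21.8%. The outer share stayed between 51.9% and 54.0% in all settings tried. For list length, rho was −0.564 within the lists whose identifier starts with 19 (permutation test, p = 0.00179), and r was −0.0278 with peaks of a −log10 q of 10 or more (permutation test, p = 0.775). The 14 named TFs were picked for their high shares at these members, and the settings reuse the same lists on overlapping loci. Their higher share at members than over all loci in each of the 10 settings tried follows in part from that choice. It is therefore no independent support. The settings included a window of equal width around each midpoint, added after the data had been seen. The named TFs then had 46.4% to 75.4% at members, against 2.36% to 9.49% over all loci. With only peaks of a −log10 q of 10 or more, their shares at members were 2.68% to 73.6%, against 0.063% to 5.56% over all loci. Under that setting NACTF67 had 2.68%, ABI33 8.63%, ZIM34 10%, MYBR19 15.5% and WRKY123 23.3%, against 56.3%, 69.7%, 61.4%, 70.8% and 72.6% with all peaks. No paired analysis was possible because each TF has 1 list. Without replicates, error between libraries of a TF is unknown, and unknown depth limits what the absence of a peak can say.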
